A study of Mus musculus with 8 samples.

Results

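Ambp, Ttr, Rbp4, Clu, Trf and Gc encode proteins that circulate in plasma and carry other molecules, and their RNA was followed in pancreatic islets of aged mice. Ambp was chosen because its level was lower in the islets of βIgf1rKD mice, so its group values are a description and were given no test. The other 5 were chosen by what they carry, though with earlier results of these data known. These 6 genes are part of 53012 in the count table, and all 6 were among the 15474 genes that passed the filter on low counts. Bulk RNA-seq was run on islets from 4 βIgf1r mice (M148, M151, M152 and M153) and 4 βIgf1rKD mice (M145, M146, M149 and M150), with a library for each mouse. All mice were 17 months old and homozygous for Igf1r flox, an Igf1r allele whose exon 3 can be cut out. The βIgf1rKD mice also carried 1 copy of Ins1-CreERT2, whose Cre recombinase becomes active in insulin-producing β-cells under tamoxifen, and they received 5 injections of tamoxifen at 0.075 mg/g, 24 h apart. Controls lacked Cre and were given corn oil, so that Cre, tamoxifen and loss of Igf1r cannot be told apart. Islets were taken 7 days after dosing ended, from males and females in each group, and the labels give no sex for a mouse.

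These proteins are best known as products of the liver. Ambp encodes a precursor that is cut into α1-microglobulin, a lipocalin that binds heme and other small molecules, and bikunin, a protease inhibitor that is joined to the heavy chains of the inter-α-trypsin inhibitors. Ttr encodes transthyretin, which carries thyroxine and holds the retinol-binding protein encoded by Rbp4 in plasma. Clu encodes clusterin, an extracellular chaperone that also binds lipids and complement. Trf encodes transferrin, which delivers iron to cells through the transferrin receptor, and Gc encodes the vitamin D-binding protein, which also binds actin released from dying cells. Ttr is a known product of islet endocrine cells, mainly α-cells.

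RefSeq promoter windows on GRCm38.p6, which run from 250 bases before to 50 bases after a transcription start, were at hand for 3 of the 6 genes, Ambp, Gc and Rbp4. The window of Ambp and a window of Rbp4 are printed below. HNF4 and FOXA proteins are liver factors that islet endocrine cells also use. Both strands were searched for CAAAGTCCA for HNF4, TGTTTAC for FOXA and TATAAA for the TATA box, none of which contains another. In the printed windows, each 5′ to 3′ on the gene's strand, capitals mark a match.
Ambp, chr4:63154123-63154422, minus strand: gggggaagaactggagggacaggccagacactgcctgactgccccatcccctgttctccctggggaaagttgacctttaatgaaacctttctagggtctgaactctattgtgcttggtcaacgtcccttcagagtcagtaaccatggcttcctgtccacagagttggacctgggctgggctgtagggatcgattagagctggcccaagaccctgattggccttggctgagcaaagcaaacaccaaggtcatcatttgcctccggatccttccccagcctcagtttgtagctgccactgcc
Rbp4, chr19:38124762-38125061, minus strand: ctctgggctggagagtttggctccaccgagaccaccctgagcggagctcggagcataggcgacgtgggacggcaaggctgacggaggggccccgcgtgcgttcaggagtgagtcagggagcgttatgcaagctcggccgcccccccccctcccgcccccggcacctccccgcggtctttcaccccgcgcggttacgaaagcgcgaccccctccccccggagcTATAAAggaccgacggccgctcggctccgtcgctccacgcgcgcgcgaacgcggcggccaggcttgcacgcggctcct
The windows of Ambp and Gc (chr5:89457849-89458148) held none of these letter runs. Both printed windows lie inside the gene models given below, which reach 63154799 for Ambp and 38125281 for Rbp4. For Ambp, bases upstream of that model were therefore not searched. The printed Rbp4 window held TATAAA, starting 28 bases before the start, which 13.6% of all 32851 promoter windows hold. A second window of Rbp4, chr19:38125272-38125571, held the reverse complement of the FOXA run, starting 241 bases before its start, and 3.65% of all windows hold that run. The HNF4 run was in no window of these genes and in 0.475% of all windows. A match is a run of letters and not a measured site.

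On GRCm38, with the gene models of GENCODE M21, the 6 genes lie on 6 chromosomes. Ambp (ENSMUSG00000028356) is on chromosome 4, from 63143275 to 63154799 on the minus strand, and its longest transcript has 10 exons. Ttr (ENSMUSG00000061808) is on chromosome 18, from 20665280 to 20674321 (plus strand), with 4 exons. Rbp4 (ENSMUSG00000024990) is on chromosome 19, from 38116629 to 38125281 on the minus strand, with 6 exons. Clu (ENSMUSG00000022037) is on chromosome 14, from 65968483 to 65981547 (plus strand), with 9 exons. Trf (ENSMUSG00000032554) is on chromosome 9, from 103204001 to 103230444 on the minus strand, with 17 exons, and it overlaps a gene model on the same strand, Gm20425, that was not analysed here. Gc (ENSMUSG00000035540) is on chromosome 5, from 89417522 to 89457898 on the minus strand, with 13 exons.

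Rounded counts per library ranged from 21633925 to 42391106. Igf1r, the targeted gene, was at 53.6 ± 7.21 CPM (counts scaled to the library total with TMM factors, SD, n = 4) in βIgf1r and 50.7 ± 4.996 CPM (n = 4) in the knockdown (log2 fold change -0.08, SE 0.11, edgeR adjusted p = 0.988), and counts of whole genes do not resolve exon 3. At an adjusted p under 0.05 edgeR's quasi-likelihood test called 0 of 15474 genes, DESeq2 called 8 and limma-voom 1. At an unadjusted p under 0.05 edgeR called 637 genes, or 4.12%. Acinar cells, which make digestive enzymes, were represented unevenly. The 13 acinar markers summed to 15706 to 155950 CPM in βIgf1r and 34259 to 193820 CPM in βIgf1rKD mice. M151 stood apart by its α-cell marker score, a mean z-score of 1.57 against -0.72 to -0.54 in the other βIgf1r mice.

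Most hepatocyte markers were low. The sources of Tat, Apoa1, Apob and Cps1, which reached higher levels, were not tested. Of 14 listed, 7 stayed under 1 CPM in every mouse and 2, Fgg and Serpina3k, were at 0 in all mice. Alb, albumin, lay between 0.678 and 1.54 CPM (18 to 58 counts). The sum of the list was 28.1 to 46.7 CPM in βIgf1r and 35.8 to 84.3 CPM in βIgf1rKD islets, most of it from Tat, which alone gave 24.05 to 38.3 CPM, and in some mice from the apolipoprotein genes Apoa1 and Apob. Apoa1, Apob and Cps1 reached 25.3, 16.4 and 6.46 CPM in M145. The lowest value of any carrier gene was 5.46 CPM, for Trf in M148.

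The carrier genes spanned a wide range of levels, which were compared per length as CPM divided by the kilobases of the longest transcript. Ttr was by far the most abundant, at 1062 ± 377 CPM per kilobase in βIgf1r and 847 ± 238 in βIgf1rKD islets (SD, n = 4 each), and by CPM it ranked as gene number 64 of those tested. Clu was at 103.4 ± 38.5 and 229.4 ± 228.7 CPM per kilobase, and Rbp4 at 86.9 ± 19.5 and 77.0 ± 16.998. Gc was at 34.5 ± 5.88 and 29.7 ± 9.02 CPM per kilobase. Ambp, a gene of moderate level, was at 17.3 ± 0.964 and 11.1 ± 1.201, and Trf was lowest at 2.88 ± 1.23 and 3.71 ± 1.46.

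**Figure D1:**
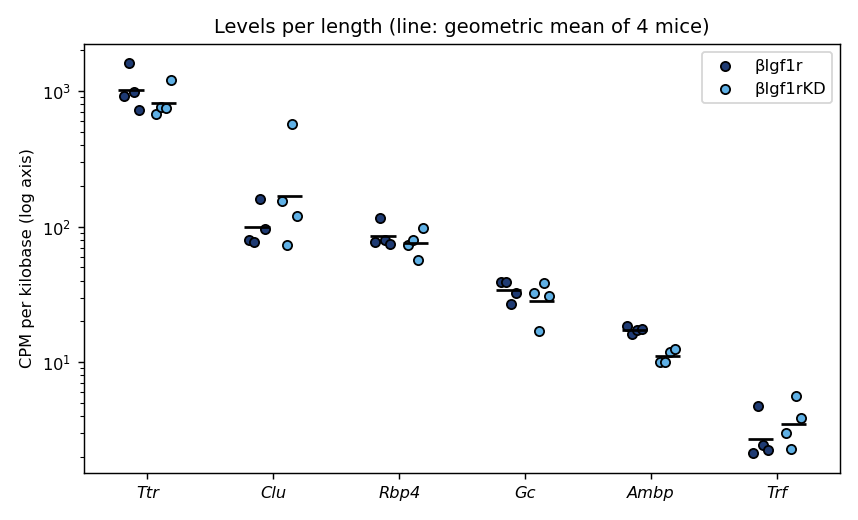
Levels of the 6 carrier protein genes in islets, as CPM per kilobase on a log axis, ordered by level. Each point is a mouse, dark for βIgf1r and light for βIgf1rKD (n = 4 each), and the line is the geometric mean. Ttr lies above and Trf below all others in every mouse, whereas the points of Clu and Rbp4 overlap.

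The order was tested between neighbours over all 8 mice by an exact two-sided sign-flip test on log2 CPM per kilobase, which cannot go below p = 0.00781, and the 5 p-values were adjusted together. Ttr exceeded Clu 7.13-fold and Rbp4 exceeded Gc 2.58-fold, each in 8 of 8 mice (exact p = 0.00781, adjusted p = 0.00977, or 0.0117 over the 3 pairs without Ambp). Gc was 2.24-fold above Ambp and Ambp 4.46-fold above Trf in 8 of 8 mice, which is given with no test since Ambp was chosen for its low level in βIgf1rKD mice. Clu and Rbp4 did not differ beyond their spread, with Clu 1.60-fold higher and higher in 6 of 8 mice (exact p = 0.125). That pair turned with the length used, from a log2 difference of 0.68 to -0.04 when all exons of each gene were counted. Without M151 the difference was 0.86 (adjusted p = 0.0469, exact test).

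Ambp was lower in every βIgf1rKD mouse than in any βIgf1r mouse. It was at 23.3, 20.4, 21.8 and 22.4 CPM in M148, M151, M152 and M153, and at 12.8, 12.8, 15.1 and 15.8 CPM in the βIgf1rKD mice M145, M146, M149 and M150. The mice of each group lay close together, and a gap from 15.8 to 20.4 CPM separated the groups. The means were 22.0 ± 1.22 and 14.1 ± 1.52 CPM (SD, n = 4 each), a ratio of 0.642, and the log2 fold change was -0.64 (SE 0.098). The coefficient of variation was 5.56% and 10.8% within the groups. Among all genes tested, 344 (2.22%) had groups that did not overlap and 196 (1.27%) had every βIgf1rKD mouse below every βIgf1r mouse. Since Ambp was chosen for this pattern, nothing is read from its place among them. Leaving out a mouse moved the log2 fold change only between -0.70 and -0.59.

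**Figure D2:**
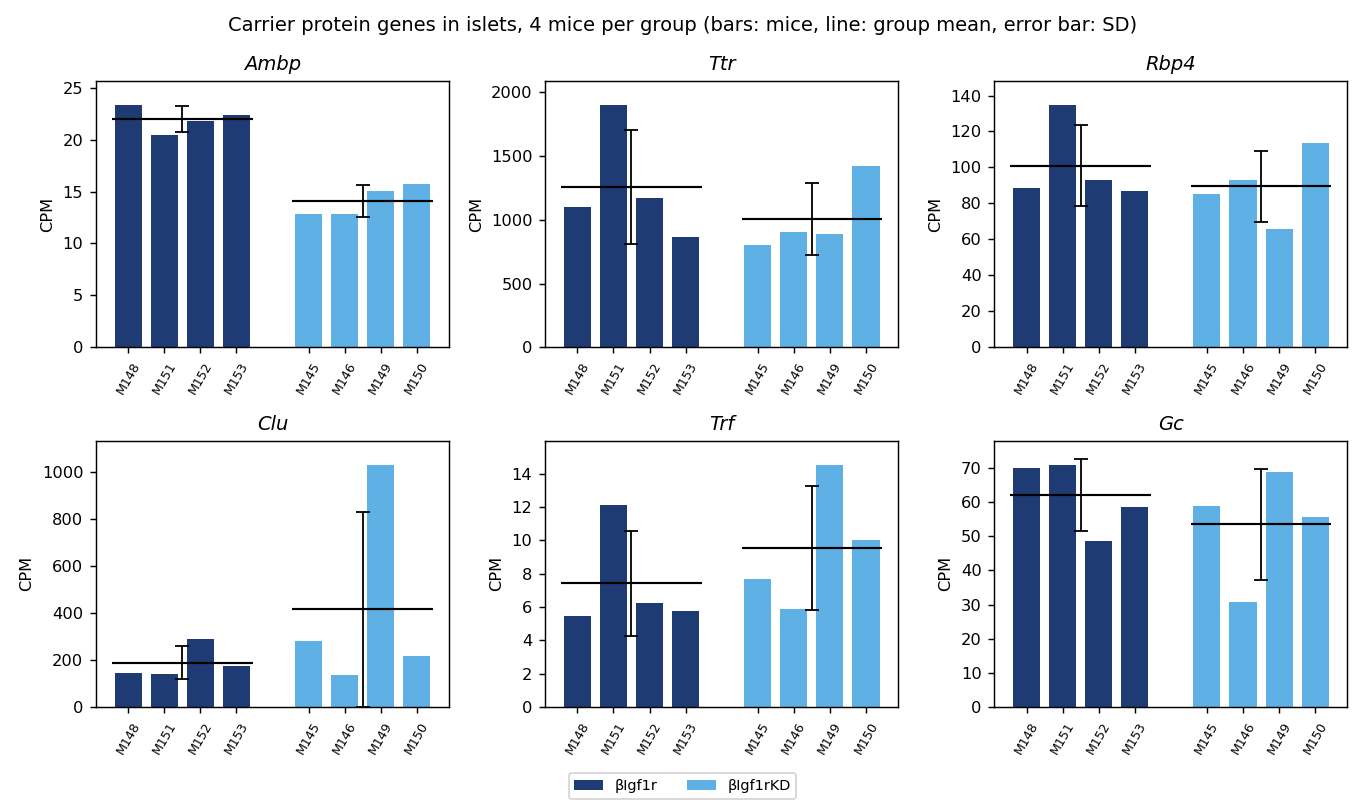
CPM of each carrier protein gene in each mouse, with the mean and SD of the 4 βIgf1r (dark) and 4 βIgf1rKD (light) mice. The groups of Ambp do not overlap, at 20.4 to 23.3 CPM against 12.8 to 15.8 CPM, whereas those of the other 5 genes do, and M149 alone carries the high βIgf1rKD mean of Clu.

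Endothelial markers moved with Ambp. In bulk RNA, fewer cells of a type and less RNA per cell cannot be told apart. Of 11 endothelial marker genes 11 had a log2 fold change below 0, with a median of -0.29 against 0.01 over all genes tested. At an unadjusted p under 0.05, 6 of the 11 were lower in βIgf1rKD islets, where 1.89% of all genes were, and 0 at an adjusted p. The summed level of the list was 454.8 to 563.0 CPM in βIgf1r and 399.2 to 443.4 CPM in βIgf1rKD islets, and no marker was at 0. All 8 tested Schwann cell markers were also below 0 (median -0.37) and all 13 acinar markers above 0 (median 0.85), with 0 of either list at an unadjusted p. Ambp had r = 0.69 and rho = 0.76 with the Schwann score, and r = 0.13 after the group means were removed, given as a description.

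Ambp followed the endothelial score inside the groups as well. Within βIgf1r the score, a mean z-score over the markers, was highest in M148 (1.15) and lowest in M151 (0.10), the mice with the highest and lowest Ambp of that group. Within βIgf1rKD it was -1.02 and -0.83 in M145 and M146, the mice with the lowest Ambp, and -0.39 and -0.40 in M149 and M150. After the group means were removed, Pearson's r between Ambp and the score was 0.87 and Spearman's rho 0.81 over the 8 mice, given as a description. The mesenchymal score also had r = 0.74 with Ambp after that step. Before it, r with the mesenchymal score was 0.48, and -0.88 without M145 and M146.

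The size of the difference was larger for Ambp than for the endothelial list, with a ratio of group means of 0.642 against 0.809 for the summed markers. Since Ambp was chosen for its lower level in βIgf1rKD islets, nothing is read from that or from the separation given next. Per 1000 CPM of endothelial markers, Ambp was at 42.6 ± 1.53 CPM in βIgf1r and 33.7 ± 2.85 CPM in βIgf1rKD islets (SD, n = 4 each), and the groups still did not overlap, with a lowest βIgf1r value of 41.4 and a highest βIgf1rKD value of 37.7. With the endothelial score as a covariate, chosen after the data were seen, the log2 fold change of Ambp was -0.27 (SE 0.18). The score and the group were themselves tied, at r = -0.90. The part of endothelial cells in the level of Ambp was not tested.

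The genes whose log2 CPM over the 8 mice was most like that of Ambp, among 8663 genes with a mean of at least 10 CPM, were Pecam1 (r = 0.949), Pcyt1b (0.947), Rin2 (0.939), Clec14a (0.933) and Igfbp7 (0.931). Their Spearman's rho with Ambp was 0.857 to 0.976. All 5 were also lower in every βIgf1rKD mouse than in any βIgf1r mouse, so these correlations largely follow the groups. Pecam1, an adhesion molecule of endothelial cells, was at 41.2 ± 1.64 and 34.9 ± 2.58 CPM, and Clec14a, an endothelial surface lectin, at 15.9 ± 1.87 and 11.5 ± 1.53 CPM (SD, n = 4 each).

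The bikunin partners were examined next. Of 6 listed genes 4 were tested and 0 passed at an unadjusted p, with 3 log2 fold changes above 0 and a median of 0.33. Itih4, a heavy chain that does not bind bikunin, had the highest fold change of the 4, at 1.34 (SE 0.90). It was at 0.453 to 6.09 CPM in βIgf1r and 1.04 to 18.2 CPM in βIgf1rKD islets, with M145 highest, and without M145 the log2 fold change was 0.49. The heavy chain genes Itih1 and Itih2, whose products do carry bikunin in plasma, were near 1 to 4 CPM, at log2 fold changes of 0.21 (SE 0.29) and 0.45 (SE 0.34). Leaving out M146 moved them to 0.01 and 0.70, and Itih1 was 0.40 without M149. Itih5, a related gene, was at -0.07 (SE 0.51), and its sign depended on the mice included. Itih3, another heavy chain, had 0 to 3 counts, and the hyaluronan-linked transfer factor Tnfaip6 had 1 to 6. Among the other lipocalins 2 of 11 genes, Apod and C8g, were tested, at -0.03 (SE 0.21) and -0.01 (SE 0.22).

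At an unadjusted p under 0.05 edgeR called 0 of the other 5 carrier genes, beside 4.12% of all genes. Their adjusted p was 0.987 for each.

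Ttr was at 1099.3, 1899.7, 1173.4 and 864.7 CPM in the βIgf1r mice M148, M151, M152 and M153, and at 802.2, 901.9, 891.4 and 1423.4 CPM in the βIgf1rKD mice M145, M146, M149 and M150. The groups overlapped, with M151 and M150 well above the other mice of their groups. The log2 fold change was -0.33 (SE 0.27, edgeR adjusted p = 0.987), and the exact two-sided permutation test on log2 CPM gave p = 0.371. Without M151 it was -0.06.

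Rbp4 showed the same order of mice at the top. It was at 88.8, 134.6, 93.2 and 87.0 CPM in βIgf1r and at 85.4, 92.8, 65.9 and 113.6 CPM in βIgf1rKD mice, in the same order of mouse numbers as for Ttr. M151 and M150 were again highest and M149 lowest, and the groups overlapped. The log2 fold change was -0.17 (SE 0.19, edgeR adjusted p = 0.987, exact permutation p = 0.400). It was -0.0030 without M151 and -0.05 without M149.

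Since transthyretin and retinol-binding protein travel as a complex, their RNAs were also compared as a ratio within each mouse. Between 9.38 and 14.1 counts of Ttr were found per count of Rbp4. The log2 ratio of Rbp4 to Ttr was -3.60 ± 0.21 in βIgf1r and -3.48 ± 0.26 in βIgf1rKD islets (SD, n = 4 each). The difference of 0.12 was smaller than the spread between mice (exact two-sided permutation p = 0.457 over 70 assignments, of which the smallest possible is 0.0286). The log2 levels of both genes followed each other over the 8 mice, with r = 0.85 and rho = 0.90, given as a description.

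Clu spread most of the carrier genes among βIgf1rKD mice, with a coefficient of variation of 99.7%, whereas among βIgf1r mice Trf did (42.8% against 37.2% for Clu). Clu was at 145.6, 140.7, 289.4 and 172.7 CPM in M148, M151, M152 and M153, and at 279.9, 133.5, 1029.5 and 217.7 CPM in M145, M146, M149 and M150. Only M149 lay above all βIgf1r mice, and M146 lay below them all. The βIgf1rKD mean of 415.2 ± 413.9 CPM exceeded that of 187.1 ± 69.6 CPM in βIgf1r (SD, n = 4 each). The log2 fold change was 1.15 (SE 0.57, edgeR adjusted p = 0.987, exact permutation p = 0.371), and the highest βIgf1rKD mouse had 7.71 times the level of the lowest. Without M149 the log2 fold change was 0.17, and with the acinar marker score as a covariate it was 0.33.

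Trf was the least abundant. It was at 5.46, 12.15, 6.27 and 5.78 CPM in M148, M151, M152 and M153 and at 7.67, 5.89, 14.5 and 10.01 CPM in M145, M146, M149 and M150, from 122 to 406 counts. M151 and M149 were the highest of their groups, and the groups overlapped. The log2 fold change was 0.36 (SE 0.33, edgeR adjusted p = 0.987, exact permutation p = 0.314). It was 0.09 without M149 and 0.71 without M151, where its unadjusted p fell under 0.05.

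Gc overlapped between the groups. It was at 70.1, 71.0, 48.6 and 58.7 CPM in M148, M151, M152 and M153 and at 58.8, 30.7, 68.9 and 55.7 CPM in M145, M146, M149 and M150. M146 was lowest and the remaining βIgf1rKD mice lay within the βIgf1r range. The log2 fold change was -0.22 (SE 0.22, edgeR adjusted p = 0.987, exact permutation p = 0.429), and without M146 it was -0.02.

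**Figure D3:**
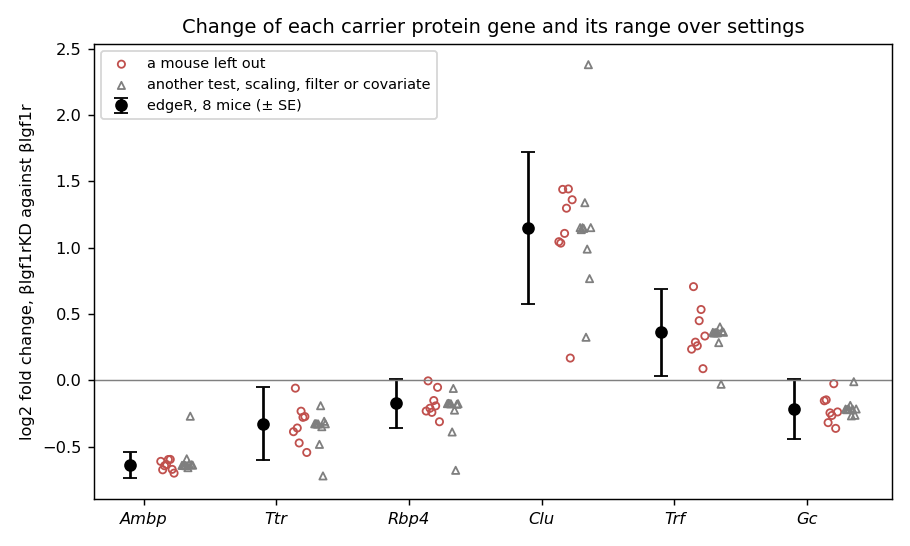
Log2 fold change of each carrier protein gene in βIgf1rKD against βIgf1r islets by edgeR with its SE (black), and its value with each mouse left out (circles) and under the other tests, scalings, filters and covariates (triangles). Ambp was chosen for its change and stayed between -0.70 and -0.27, Clu went from 1.15 to 0.17 without M149, and Trf turned to -0.03 with the endothelial score as a covariate.

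The spread between mice was then set against marker scores of 9 cell types, as mean z-scores of log2 CPM. For the 5 genes other than Ambp 45 relations were tested by exact permutation of the 8 mice (40320 pairings), and p-values were adjusted over 54 relations, those of Ambp included. Of the 45, 4 had an adjusted p under 0.05 by Pearson's r and 2 by Spearman's rho. Adjusted over the 45 alone, the counts were 4 and 1, since Rbp4 and δ-cell markers then had 0.0502 by rho (exact permutation test). The labels name no batch within which they could be repeated.

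Rbp4 followed the markers of δ-cells, which secrete somatostatin. That score rests on only 3 genes, Sst, Hhex (3.93 to 7.46 CPM) and Ghsr (1.44 to 3.67 CPM), each highest in M151. Pearson's r was 0.94 (exact p = 0.000223, adjusted p = 0.00603) and rho was 0.93 (exact p = 0.00223, adjusted p = 0.0402). Leaving out M151 and M149, the mice farthest from the median score, gave r = 0.84, and removing the group means left r at 0.94. Without M151 alone the adjusted p was 0.136 (exact test, r = 0.83), and with log2 summed CPM in place of z-scores it was 0.0830. Rbp4 also followed the markers of α-cells, which secrete glucagon, with r = 0.88 (exact p = 0.00201, adjusted p = 0.0217) and rho = 0.71 (exact p = 0.0576, adjusted p = 0.311). That relation rested on M151 and M150, without which r was 0.51. Ttr with δ-cell markers had r = 0.86 (exact p = 0.00883, adjusted p = 0.0795) and did not pass. With α-cell markers Ttr had r = 0.73 (exact p = 0.0382, adjusted p = 0.172) and rho = 0.48, and did not pass either. Without M151 and M150 that r was -0.43.

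Trf followed the macrophage markers. Pearson's r was 0.90 (exact p = 0.000446, adjusted p = 0.00804) and rho was 0.98 (exact p = 0.000397, adjusted p = 0.0214), and r was 0.93 without M149 and M150. Without M149 alone the adjusted p was 0.102 (exact test, r = 0.88). The summed macrophage markers were at 119.9 to 172.5 CPM in βIgf1r and 140.0 to 296.1 CPM in βIgf1rKD islets. Of 10 macrophage markers 3 were higher in βIgf1rKD at an unadjusted p, beside 2.23% of all genes, and 0 of them without M149. With log2 summed CPM in place of z-scores the adjusted exact p of Trf and these markers was 0.0556.

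Clu followed the markers of duct cells, which line the pancreatic ducts. Pearson's r was 0.93 (exact p = 0.00179, adjusted p = 0.0217) and rho was 0.88 (exact p = 0.00724, adjusted p = 0.0782), so that the call held by r alone. Without M145 and M149 r was 0.76. Leaving out M145, M149, M150 or M151 alone ended the call, with r between 0.83 and 0.96 and adjusted exact p between 0.0536 and 0.107, and with log2 summed CPM the adjusted exact p was 0.283. Duct markers summed to 155.1 to 208.5 CPM in βIgf1r and 179.3 to 242.5 CPM in βIgf1rKD islets. Of these sums Krt7 alone gave 129.9 to 170.6 and 135.0 to 193.8 CPM (log2 fold change -0.02, SE 0.14), so they mostly follow that gene. Krt7 was highest in M146, which had the lowest duct score of the βIgf1rKD mice (-0.41). With acinar markers Clu had r = 0.74 and rho = 0.88 (exact test, adjusted p = 0.127 for r). With macrophage markers it had r = 0.85 and rho = 0.50 (exact test, adjusted p = 0.164 for r), and r = 0.22 without M149 and M150. M149, the mouse with the most Clu, had the highest duct (1.23), macrophage (1.72), mesenchymal (0.95) and acinar (0.98) scores of all mice. None of the 9 relations of Gc had an adjusted p under 0.05, and the closest was with mesenchymal markers, at r = 0.82 (exact p = 0.0237, adjusted p = 0.142).

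**Figure D4:**
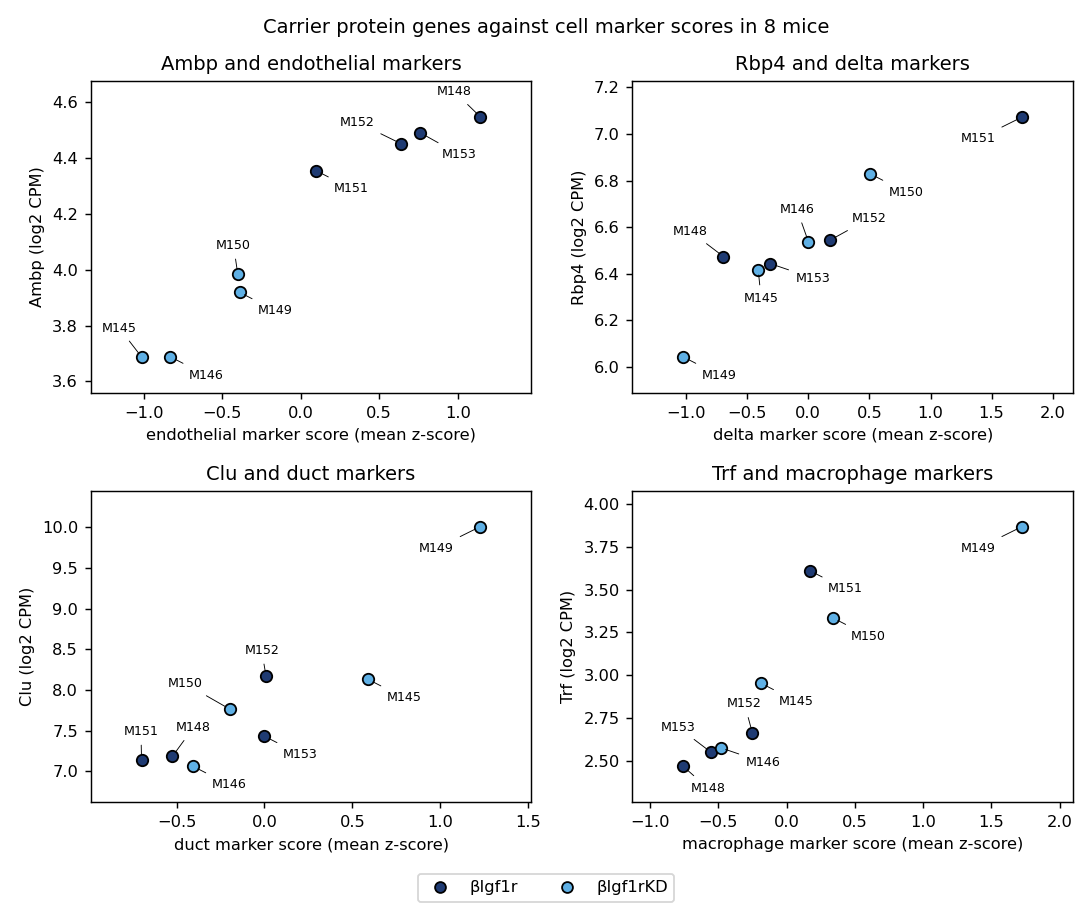
Log2 CPM of a carrier protein gene against a cell marker score (mean z-score) in the 8 mice, dark for βIgf1r and light for βIgf1rKD. Ambp rises with the endothelial score within each group, Rbp4 with the δ-cell score up to M151, Clu with the duct score up to M149 and Trf with the macrophage score up to M149.

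Genes that work with each carrier protein were read from lists of pathway members. At an adjusted p under 0.05 edgeR called 0 genes in every list, so the counts below are those at an unadjusted p, beside 2.23% of all genes higher and 1.89% lower in βIgf1rKD islets. Over all genes 52.3% had a log2 fold change above 0.

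Of 27 genes of retinoid handling, the pathway fed by Rbp4, 19 were tested, with 13 log2 fold changes above 0 and a median of 0.13. At an unadjusted p 2 were higher and 0 lower. Neither passed without M149, where Cyp26b1 did, and 0 genes passed with the acinar score as a covariate. Rbp2, an intestinal retinol-binding protein, was at 0.878, 0.327, 3.03 and 0.427 CPM in βIgf1r and 17.4, 4.53, 7.23 and 0.123 CPM in βIgf1rKD mice (log2 fold change 2.62, SE 1.08). Aldh1a1, which makes retinoic acid, was at 1.94 to 6.73 and 2.57 to 17.6 CPM (1.42, SE 0.58). Both were highest in M145, and for both genes the groups overlapped. The value of Rbp2 was 1.74 without M145 and 1.31 by limma-voom, and that of Aldh1a1 was 0.41 with the acinar score as a covariate. Stra6, the receptor that takes up retinol from the Rbp4 complex, had 0 to 3 counts.

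Thyroid hormone is the other cargo of transthyretin. Of 9 tested genes 0 were called, with a median log2 fold change of -0.05. The transporter gene Slc16a10 was at 207 ± 24.6 and 179 ± 27.7 CPM (log2 fold change -0.21, SE 0.13) and Slc7a8, another transporter, at 179 ± 10.9 and 186 ± 20.5 CPM (0.05, SE 0.10), SD and n = 4 for each group.

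Of 19 tested genes of iron handling, 16 had a log2 fold change above 0, with a median of 0.20. At an unadjusted p 4 were higher (21.1%) and 0 lower. Of these 4, Slc40a1 alone passed without M149 and with the acinar score as a covariate. Without M149 Cp, for the iron oxidase ceruloplasmin, also passed and was lower (-0.89). Slc40a1, which encodes ferroportin, the exporter of cellular iron, was at 25.4, 46.5, 18.6 and 22.2 CPM in M148, M151, M152 and M153 and at 53.2, 59.1, 26.9 and 45.0 CPM in M145, M146, M149 and M150. The groups overlapped through M151. Its log2 fold change was 0.71 (SE 0.31), and with the endothelial score as a covariate it turned to -0.54.

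The other iron genes called at an unadjusted p were importers. Slc11a2, a divalent metal transporter, was at 26.8 to 28.3 and 27.8 to 45.9 CPM (log2 fold change 0.33, SE 0.14, and 0.17 without M149). Slc39a8, another metal importer, was at 0.400 to 1.42 and 0.821 to 4.44 CPM (1.39, SE 0.53), and Slc25a37, the mitochondrial iron importer, at 7.39 to 9.56 and 8.96 to 12.4 CPM (0.34, SE 0.13). Tfrc, the receptor for transferrin, was at 52.7 ± 11.7 and 59.96 ± 12.8 CPM (SD, n = 4 each), a log2 fold change of 0.19 (SE 0.19). The ferritin genes Fth1 and Ftl1, for the iron store, had log2 fold changes of 0.22 (SE 0.12) and 0.28 (SE 0.16). Macrophages are rich in ferroportin and ferritin, and the macrophage score was highest in M149. Fth1 (483.5 CPM), Ftl1 (1591.4 CPM), Slc11a2 and Slc39a8 were also highest of all mice in M149, whereas its Slc40a1 was the lowest of the βIgf1rKD mice. The part of macrophages in the iron genes was not tested.

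Of 10 tested clusterin receptors and regulators of complement lysis, 5 had a log2 fold change above and 5 below 0. Trem2, a receptor of macrophages that binds clusterin, was at 0.284 to 0.392 CPM in βIgf1r and at 0.374, 0.357, 1.92 and 0.937 CPM in βIgf1rKD mice (log2 fold change 1.39, SE 0.54, and 0.75 without M149). Cd59a, which blocks the last step of complement lysis, was at 11.1, 17.1, 28.1 and 39.6 CPM in βIgf1r and at 13.5, 16.2, 9.88 and 11.9 CPM in βIgf1rKD mice (-0.89, SE 0.35, and -0.54 without M153). Both passed at an unadjusted p and neither did without M149, where Lrp8, a lipoprotein receptor, passed (0.35), and Cd59a passed with the acinar score as a covariate. Cd59a was high in M152 and M153 alone. Of the 7 tested genes of vitamin D handling 0 were called, and the receptor gene Vdr was at 152.6 ± 30.5 and 158.6 ± 22.9 CPM (log2 fold change 0.06, SE 0.16). Lrp2 and Cubn, which take up carrier proteins in the kidney, had 1 to 6 and 0 to 11 counts.

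**Figure D5:**
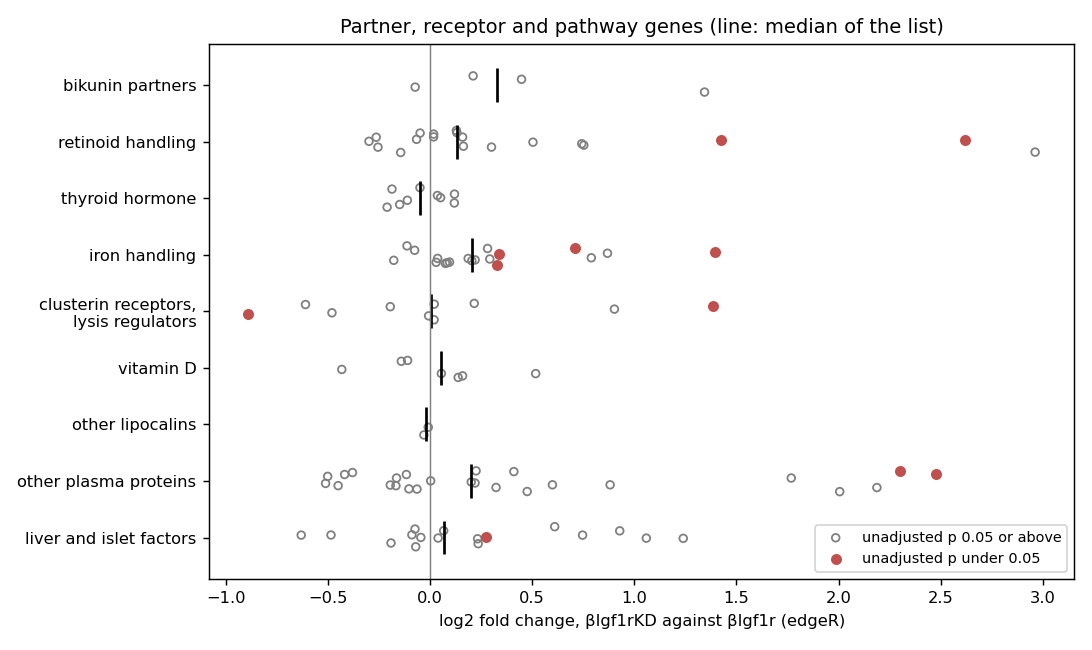
Log2 fold changes of tested genes in 9 lists of partners, receptors, pathway members and regulators of the carrier proteins, in βIgf1rKD against βIgf1r islets. Each point is a gene, filled where its unadjusted edgeR p was under 0.05, and the line is the median of a list, which lay between -0.05 and 0.33. No gene passed after adjustment.

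Other plasma protein genes made in the liver ranged from none to moderate levels, with a sum of 211.9 to 441.8 CPM. Of 53 listed, 28 were under 1 CPM in every mouse and 7 at 0, and 25 were tested, with a median log2 fold change of 0.20. At an unadjusted p 2 were higher, 0 of them without M149. Apob, the backbone of lipoproteins, was at 0.327 to 2.60 CPM in βIgf1r and at 16.4, 2.18, 6.14 and 0.395 CPM in M145, M146, M149 and M150 (log2 fold change 2.30, SE 0.96, and 1.18 without M145). Fetub, a protease inhibitor, was at 18.8 CPM in M149 and at 0.255 to 1.66 CPM in all other mice (2.48, SE 1.08, and 0.05 without M149). Apoe, the lipoprotein ligand that macrophages also make, was at 107.4 ± 18.1 and 142.8 ± 47.9 CPM (0.41, SE 0.22, and 0.16 without M149). Enterocyte markers, a list chosen after the values were seen, moved with Apob and Rbp2. Of 8 tested 7 had a log2 fold change above 0 (median 2.33). At an unadjusted p 4 passed, and 0 with the acinar score as a covariate. The list summed to 84.4 to 118.8 CPM in βIgf1r and 85.4 to 203.1 CPM in βIgf1rKD islets. Of these sums Vil1 alone gave 79.3 to 100.6 and 75.6 to 111.3 CPM (log2 fold change -0.02, SE 0.13). In M150 every other listed marker was at 0.839 CPM or below. The part of enterocytes in Apob and Rbp2 was not tested.

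Of 17 tested factors that drive liver and islet genes, 10 had a log2 fold change above 0 and 1 was called at an unadjusted p, beside 4.12% of all genes. Without M149 3 were called, with Xist as a covariate 4 and with the acinar score 0. Foxa3 was at 11.6, 11.2, 10.8 and 12.5 CPM in βIgf1r and 14.97, 13.6, 14.7 and 12.5 CPM in βIgf1rKD mice (log2 fold change 0.28, SE 0.096), with M153 and M150 level. Foxa2, the forkhead factor of endocrine cells, was at 71.8 ± 3.95 and 68.2 ± 4.44 CPM (-0.07, SE 0.07). Hnf4a was at 25.7 ± 1.43 and 26.9 ± 0.984 CPM (0.07, SE 0.07), SD and n = 4 for each group.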

How the data were processed

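Islet RNA of 8 mice was measured by stranded mRNA sequencing, and groups and mouse numbers were taken from the labels. The authors deposited an estimated count per gene and mouse, unscaled. The submitters' processing notes name fastp, kallisto and GRCm38, and the versions and annotation release are not given in the sources used here. Of 53012 gene identifiers 51906 matched a symbol, 200 of them sharing it with another.

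The estimated counts were rounded, which left totals of 21633925 to 42391106 per mouse. With 122 or more counts in every mouse, counting error is small beside the spread between mice for the carrier genes other than Ambp. For Ambp, at 274 to 876 counts, it is not small beside a coefficient of variation of 5.56% in βIgf1r and 10.8% in βIgf1rKD. All libraries differed beyond sampling noise (chi-square per degree of freedom at least 72.95). The default filter of edgeR 4.0.16 (a minimum count of 10 in 4 mice, a minimum total of 15) kept 15474 genes. TMM-scaled counts of both groups were compared with the quasi-likelihood test of edgeR, and p-values were adjusted by Benjamini-Hochberg over all genes tested, in R 4.3.3, at a threshold of 0.05. Log2 CPM used a prior count of 2. SE values were derived from the test statistic. P-values of the group tests set a difference against the spread between mice, and sex is not marked per mouse. Levels per kilobase used the longest GENCODE M21 transcript, with all exons of a gene as an alternative. Exact tests enumerated every assignment of the mice, in Python 3.11.15, and matplotlib 3.10.9 made the plots.

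The carrier genes, lists and alternatives were chosen with earlier results of these data known. The genes named are the 6 carrier genes, their direct partners and receptors, genes of a list with an unadjusted p under 0.05 or else up to 4 of its most abundant genes, and the 5 genes with the highest Pearson's r to Ambp among those with a mean of at least 10 CPM. Alternatives were RLE size factors, limma-voom (limma 3.58.1), DESeq2 1.42.0, no filter, at least 10 counts in every mouse, totals without acinar genes, Xist, acinar or α-cell score as covariate, a prior count of 0.5, log2 summed CPM in place of z-scores, and each mouse left out. The endothelial covariate was added after the data were seen. Some genes counted in the lists are not reported here by name.

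The fit was tested on simulated counts made from these mice. With 200 genes changed, the test recovered 13% at a fold of 1.5, 86.5% at a fold of 2 and 98% at a fold of 4. These are calls at an adjusted p under 0.05, and 0 genes were called where none was changed. At a fold of 2 it called 183 genes, of which 173 were changed ones. The changed genes were drawn from the more abundant ones, so recovery of genes of low level was not measured. Each gene was simulated on its own, without shared shifts in cell content between mice.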

Additional observations from a re-analysis of the deposited data

Results flagged for a closer look

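Among 54 sets of 4 mice, 3 held a mouse far from the other 3 of its group, by Dixon's ratio of its gap to the whole range, and chance alone gives about 1 in 20 such sets. Rbp4 in the βIgf1r mouse M151 reached 7.07 on the log2 CPM scale, where its group otherwise lay between 6.44 and 6.54 (ratio 0.841). The α-cell marker score of the same mouse was 1.57 against -0.72 to -0.54 (ratio 0.920). Fetub in the βIgf1rKD mouse M149 reached 4.24, with the rest of the group between -0.35 and 0.38 (log2 CPM, ratio 0.840). The cause of these values was not tested.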

How the results depend on the processing

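No paired analysis was possible because each mouse belongs to a single group and the labels give no litter or sex to pair mice by. The log2 fold changes of Ttr, Rbp4, Clu and Gc kept their sign under every alternative run and none of the carrier genes other than Ambp had an adjusted p under 0.05 under any. That of Ambp lay between -0.70 and -0.59 with a mouse left out and was -0.27 with the endothelial score as a covariate.

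The count of genes at an unadjusted p, 637, was 1098 with no filter, 1143 with Xist, 368 with the acinar score and 307 with the endothelial score as a covariate, and 383 to 1114 with a mouse left out. The count at an adjusted p, 0 by edgeR, was 1 by limma-voom and 8 by DESeq2. Of the 5 carrier genes other than Ambp, 0 passed at an unadjusted p, against 1 with no filter, 2 with Xist (Clu 1.34 and Rbp4 -0.39), 1 with the α-cell score as a covariate (Rbp4 -0.22) and 0 to 1 with a mouse left out.

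Clu minus Rbp4 was -0.039 with all exons as length and 0.30 to 0.86 with a mouse left out. The count of marker relations at an adjusted p, 4, was 0 with log2 summed CPM in place of z-scores and 1 to 5 with a mouse left out. With summed CPM, Rbp4 and δ-cell markers had r = 0.87 (adjusted exact p = 0.0830), Trf and macrophage markers 0.90 (adjusted exact p = 0.0556) and Clu and duct markers 0.68 (adjusted exact p = 0.283).

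Some log2 fold changes changed sign. With the endothelial score they were Trf -0.028, Slc40a1 -0.54, Tfrc -0.063, Itih1 -0.64, Itih4 -0.32, Itih5 0.12, Hnf4a -0.033, Cyp26b1 -1.27 and Igf1r 0.0498. With Xist they were Vdr -0.086, Itih1 -0.051 and Igf1r 0.023, and with the acinar score Itih4 -0.0401. With a mouse left out Vdr was -0.056 to 0.16, Cyp26b1 -0.62 to 3.70 and Itih5 -0.58 to 0.25. The cause of these changes was not tested, and with 4 mice a group the simulated test found few changes of 1.5-fold.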

Other observations

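Cyp26b1, an enzyme that breaks down retinoic acid, was named after its values were seen. It was at 0.178 to 1.65 CPM in βIgf1r islets and at 23.6, 0.785, 0.566 and 0.197 CPM in the βIgf1rKD mice M145, M146, M149 and M150. The log2 fold change was 2.96 (SE 1.41, edgeR adjusted p = 0.987), and it rested on M145, without which it turned to -0.62.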
